A study of Homo sapiens with 8 samples.

Results

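The mitochondrial iron-sulfur cluster assembly genes are the 8 genes NFS1, ISCU, ISCA1, ISCA2, NFU1, LYRM4, GLRX5 and FDX2, taken from 58051 genes in the count files. They were matched by gene symbol to the Ensembl gene identifiers of the files, and an identifier was present for 8 of 8. Their mRNA was followed in MDA231 (MDA-MB-231) cells, a human breast cancer line without oestrogen and progesterone receptors, by sequencing of the 3' ends of mRNA. Parental cells (n = 2 samples) were compared with SDHBKO cells (n = 3), in which exon 1 of SDHB was cut with a TALEN pair and cells were selected with hygromycin, and with SDHBKOSDHAlow cells (n = 3), which carry the same SDHB knockout plus an SDHA shRNA selected with puromycin. SDHA and SDHB encode the flavoprotein and the iron-sulfur subunit of respiratory complex II (CII, succinate dehydrogenase), so that in the study's models parental cells hold assembled CII, SDHBKO cells hold only the smaller SDHA-containing form CIIlow, and SDHBKOSDHAlow cells lack both. No drug or other treatment was applied, and all cells were collected at the same confluency. The labels name no empty vector for the SDHBKO samples, so in the comparison of SDHBKOSDHAlow with SDHBKO cells the shRNA itself and the vector with its selection cannot be told apart. In the comparisons with parental cells, the loss of SDHB and the transfection with its hygromycin selection cannot be told apart either.

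Iron-sulfur clusters are small inorganic cofactors that carry electrons or shape active sites, and SDHB holds several of them. In mitochondria the desulfurase NFS1, kept stable by LYRM4, draws sulfur from cysteine and passes it to the scaffold ISCU, with electrons from the ferredoxin FDX2. The new cluster moves over the glutaredoxin GLRX5 to the late factors ISCA1, ISCA2 and NFU1, which serve enzymes such as lipoate synthase and the respiratory complexes.

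The genes lie on 7 chromosomes of GRCh38 (GENCODE release 44), with NFS1 at chr20:35668052-35699355 on the minus strand, LYRM4 at chr6:5103629-5260950 on the minus strand, ISCU at chr12:108562582-108569368 on the plus strand and FDX2 at chr19:10309916-10316015 on the minus strand. GLRX5 lies at chr14:95533503-95544724 and ISCA2 at chr14:74493756-74497106, both on the plus strand, while ISCA1 at chr9:86264546-86283102 and NFU1 at chr2:69396113-69437628 are on the minus strand. The promoters, from RefSeq (GRCh38.p14, 300 bases that end shortly after a start), matched for 8 of 8 genes, with a pair of starts for NFU1 and 9 promoters in all. They are shown for the 2 members with the lowest p-values in the tests below, GLRX5 at chr14:95534800-95535099 on the plus strand and LYRM4 at chr6:5260901-5261200 on the minus strand. Capitals mark CCAAT or its reverse complement, the letters bound by NF-Y.
GLRX5: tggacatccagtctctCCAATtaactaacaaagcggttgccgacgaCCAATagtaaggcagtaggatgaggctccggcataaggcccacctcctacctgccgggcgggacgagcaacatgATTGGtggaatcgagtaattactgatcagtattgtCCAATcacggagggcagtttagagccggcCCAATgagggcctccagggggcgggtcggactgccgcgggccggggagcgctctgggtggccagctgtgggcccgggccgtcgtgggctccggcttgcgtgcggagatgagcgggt
LYRM4: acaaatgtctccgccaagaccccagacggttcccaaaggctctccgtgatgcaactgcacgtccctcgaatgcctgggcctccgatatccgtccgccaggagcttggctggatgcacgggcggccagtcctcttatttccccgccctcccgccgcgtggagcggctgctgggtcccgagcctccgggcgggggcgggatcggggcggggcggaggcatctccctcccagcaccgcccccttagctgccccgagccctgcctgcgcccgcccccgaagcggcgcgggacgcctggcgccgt
The GLRX5 promoter holds CCAAT 5 times on either strand, and 0.359% of 35116 promoters of the same length hold it as often (126 promoters). The highest number in any other member was 2, and 34.6% of all promoters hold at least 1. The LYRM4 promoter holds none, nor the letters searched for NRF1 (by its name alone), GABPA (CCGGAAG), CREB (TGACGTCA) or YY1 (AAGATGGC). It is one of 8 of the 9 member promoters with GGGCGG, the letters of SP1, which 45.0% of all promoters hold. The letters AAGATGGC stood in 3 of the 9 member promoters, those of ISCU, ISCA2 and NFU1, against 2.9% of all promoters. The last 60 bases of each are shown because these promoters share the letters shortly past the start. The windows are chr12:108562586-108562645 on the plus strand, chr14:74493755-74493814 on the plus strand and chr2:69437386-69437445 on the minus strand, with AAGATGGC in capitals.
ISCU: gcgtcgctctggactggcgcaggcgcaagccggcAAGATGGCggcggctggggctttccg
ISCA2: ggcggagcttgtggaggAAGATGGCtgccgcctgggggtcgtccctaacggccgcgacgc
NFU1: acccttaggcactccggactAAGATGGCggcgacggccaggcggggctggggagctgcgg
Both strands were searched for each motif, and a match describes letters only. Also searched were TGCGCA, in 2 of the 9 member promoters (8.2% of all promoters), CACGTG in 1 (7.3%) and TGACNNNGC in 1 (13.3%).

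The libraries held 773042 to 1427141 reads counted on genes, so that 3 counts correspond to 2.1 to 3.88 CPM (counts scaled to the library total). The CPM of genes below were scaled by the TMM factor of each library as well. No 2 replicates agreed within sampling noise (chi-squared per degree of freedom 2.09 to 9.58). SDHA, the target of the shRNA, had 64 and 69 counts in parental samples, 108, 121 and 140 in SDHBKO samples and 7, 17 and 16 in SDHBKOSDHAlow samples. SDHB had 4 and 3, then 0, 3 and 1, then 0, 2 and 1 counts, which is too few to check the knockout. The 7 markers of MDA231 cells were all detected at a summed 4240 to 4970 CPM, ESR1 and PGR of the luminal list were at 0, and COL1A2, DCN, LUM and PDGFRA of fibroblasts and PTPRC, CD3E, CD14 and MS4A1 of leukocytes were at 0 in every sample. The remaining fibroblast markers COL1A1 and PDGFRB had 0 to 4 and 0 to 3 counts. CD68 of the leukocyte list had 0 counts in parental, 3, 3 and 1 in SDHBKO and 1, 6 and 1 in SDHBKOSDHAlow samples. Of the luminal list, KRT8 had 122 to 206 counts, GATA3 8 to 20, CDH1 0 to 2, and FOXA1 and EPCAM 0 to 1. The summed level of the 7 luminal markers, of which 5 were detected, was 163 to 172 CPM in parental, 208 to 290 in SDHBKO and 166 to 186 in SDHBKOSDHAlow samples. Its part in the results on SDHBKO cells was not tested. In bulk RNA, fewer cells of a kind and less RNA per cell cannot be told apart.

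None of the iron-sulfur cluster assembly genes differed between the groups past the threshold. Of the 8 genes, 7 passed the filter on low counts (a mean normalised count above 5), and FDX2 had 0 counts in each of the 8 samples. In the quasi-likelihood test of edgeR with Benjamini-Hochberg adjustment over 7550 genes, 0 of the 7 were called at an adjusted p below 0.1 in SDHBKO against parental cells, where 5.54% of all genes tested were called. Likewise 0 of 7 were called in SDHBKOSDHAlow against SDHBKO cells (background 1.51%), 0 of 7 in SDHBKOSDHAlow against parental cells (background 0.914%) and 0 of 7 in the test of any difference among the 3 groups (background 4.37%). With backgrounds this low, a count of 0 among 7 genes says little about the set. At an unadjusted p below 0.05 the counts were 2 (LYRM4 and GLRX5), 0, 1 (GLRX5) and 1 (GLRX5), against 17.5%, 12.1%, 12.3% and 17.4% of all genes. DESeq2 also called 0 of them in each of these tests, with GLRX5 at an unadjusted p below 0.05 in the first, the third and the last. It gave no adjusted p for 5, 3, 5 and 5 of the 7 genes.

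**Figure D1:**
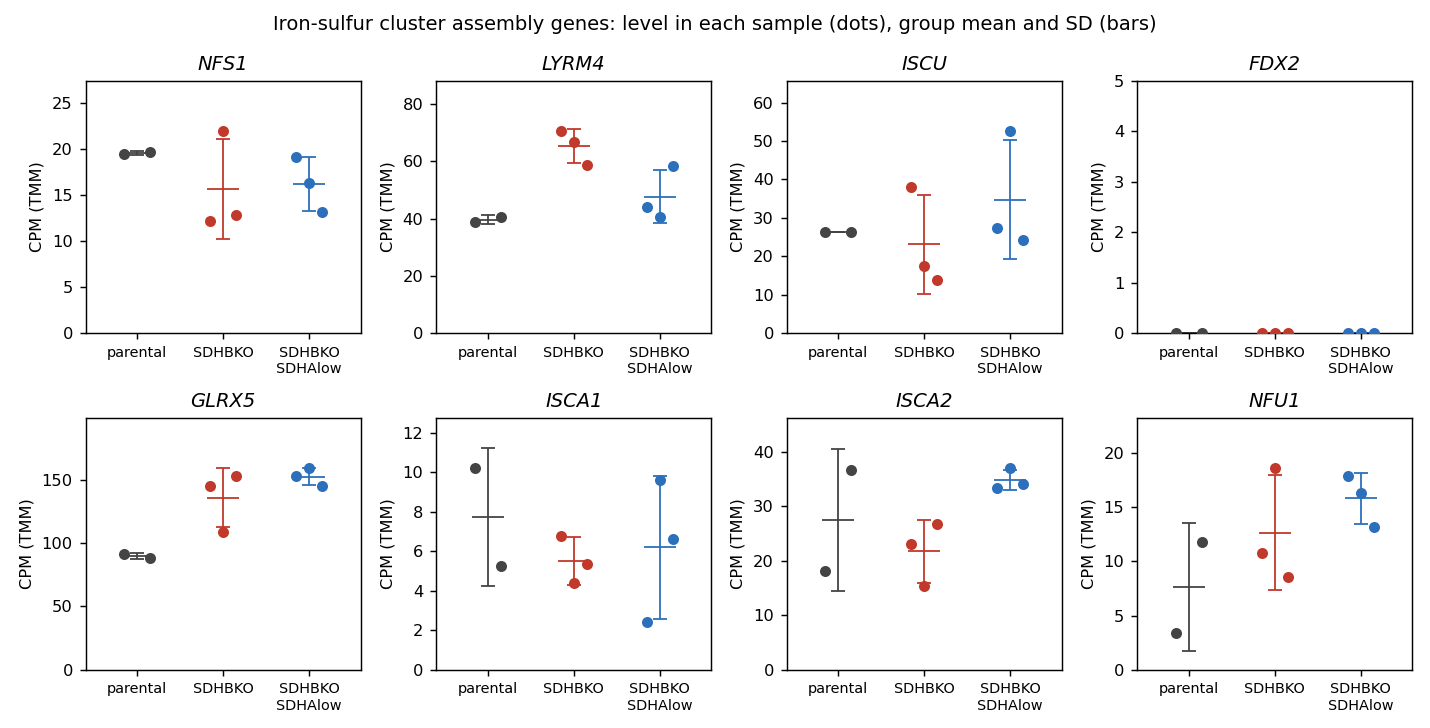
Level of each of the 8 iron-sulfur cluster assembly genes in each sample, in CPM normalised by TMM on a linear axis that starts at 0, for parental (n = 2), SDHBKO (n = 3) and SDHBKOSDHAlow (n = 3) cells. Dots are samples, the wide bar is the mean and the error bar the SD. GLRX5 lies at 87.9 to 91.1 CPM in parental samples and at 109 to 159 CPM in all others, and FDX2 is at 0 throughout.

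The cysteine desulfurase NFS1 was measured at 19.4 and 19.7 CPM in parental samples, at 12.2, 21.9 and 12.8 in SDHBKO samples and at 19.1, 16.3 and 13.2 in SDHBKOSDHAlow samples. SDHBKO replicate 2 was the highest of all, and the other SDHBKO samples were the lowest. The log2 fold change was -0.31 in SDHBKO against parental cells (SE 0.46, adjusted p = 0.79), 0.04 in SDHBKOSDHAlow against SDHBKO cells (SE 0.41, adjusted p = 0.984) and -0.28 in SDHBKOSDHAlow against parental cells (SE 0.45, adjusted p = 0.85). In the last of these the groups did not overlap, with the highest SDHBKOSDHAlow sample just under the lower parental one, and 30.6% of all genes tested were likewise without overlap. NFS1 and ROMO1, a gene for a small protein of the mitochondrial inner membrane, are transcribed away from each other, and their annotated starts overlap by 83 bases. ROMO1 had mean levels of 1140 CPM in parental, 714 in SDHBKO and 979 in SDHBKOSDHAlow cells, and it fell by 0.68 on the log2 scale in SDHBKO against parental cells (SE 0.19, adjusted p = 0.0681). It was named after its values were seen, as a neighbour of NFS1.

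LYRM4, the small protein that stabilises NFS1, was measured at 38.7 and 40.7 CPM in parental samples, at 70.5, 66.9 and 58.7 in SDHBKO samples and at 44.1, 40.7 and 58.3 in SDHBKOSDHAlow samples. All SDHBKO samples lay above all samples of both other groups, although SDHBKO replicate 3 and SDHBKOSDHAlow replicate 3 were nearly level. Of all genes tested, 37.7% were without overlap in SDHBKO against parental cells and 17.3% in SDHBKOSDHAlow against SDHBKO cells. The difference between SDHBKO and parental cells was 0.71 on the log2 scale (SE 0.30, 95% interval 0.09 to 1.33), with an unadjusted p of 0.0265 and an adjusted p of 0.207 in edgeR. In SDHBKOSDHAlow against SDHBKO cells it was -0.46 (SE 0.26, adjusted p = 0.481) and against parental cells 0.25 (SE 0.30, adjusted p = 0.782). In every SDHBKO library a larger share of reads mapped to several places (14.45% to 16.07%) than in any other library (9.72% to 12.28%), and the part of this in the LYRM4 values was not tested. No exon of LYRM4 is shared with another gene. Its neighbour FARS2, the mitochondrial phenylalanyl-tRNA synthetase, starts 94 bases away in the other direction and had means of 44.7, 50.4 and 58.5 CPM in the 3 groups, with a log2 fold change of 0.18 in SDHBKO against parental cells (SE 0.32, adjusted p = 0.829).

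ISCU, the scaffold on which the cluster forms, was measured at 26.2 CPM in both parental samples, at 37.9, 17.5 and 13.9 in SDHBKO samples and at 27.4, 52.5 and 24.2 in SDHBKOSDHAlow samples. Single samples stood apart within both modified groups, SDHBKO replicate 1 and SDHBKOSDHAlow replicate 2, the deepest library, and the groups overlapped in each comparison. The log2 fold changes were -0.22 in SDHBKO against parental cells (SE 0.46, adjusted p = 0.862), 0.65 in SDHBKOSDHAlow against SDHBKO cells (SE 0.39, adjusted p = 0.536) and 0.43 in SDHBKOSDHAlow against parental cells (SE 0.44, adjusted p = 0.742). Without SDHBKOSDHAlow replicate 2 the last value was -0.03.

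FDX2, the ferredoxin that reduces the forming cluster, had no count in any library. In the annotation 73.4% of its exon bases are shared, on the same strand, with the readthrough gene ENSG00000167807, which had 0 to 3 counts, and 5.1% with ENSG00000267303, which had 0. A read in an exon shared by several genes is ambiguous and goes to none of them in the gene counts of STAR, and 2.76% to 3.06% of the reads of each library were ambiguous. The count of 0 therefore sets no limit on the level of FDX2 mRNA. The genes on either side, ZGLP1 with 0 to 1 and RAVER1 with 0 to 3 counts, were close to 0 as well, and their exons are also shared in part, on the same strand, with ENSG00000167807 and ENSG00000267303 respectively, so that the same ambiguity limits their counts.

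GLRX5, the glutaredoxin that relays new clusters, had the highest level of the 7 tested genes and lay higher in both modified lines than in parental cells, without passing the threshold. It was measured at 91.1 and 87.9 CPM in parental samples, at 145, 109 and 153 in SDHBKO samples and at 153, 159 and 145 in SDHBKOSDHAlow samples. Each of the 6 modified samples was above both parental samples, and the modified lines overlapped with each other. Against parental cells, 37.7% of all genes tested were without overlap in SDHBKO and 30.6% in SDHBKOSDHAlow cells. In SDHBKOSDHAlow against parental cells the log2 fold change was 0.76 (SE 0.24, 95% interval 0.26 to 1.27), a 1.70-fold level, with an unadjusted p of 0.00468 and an adjusted p of 0.173 in edgeR. In SDHBKO against parental cells it was 0.59 (SE 0.24, 95% interval 0.09 to 1.10, adjusted p = 0.197), and between the modified lines 0.17 (SE 0.21, 95% interval -0.26 to 0.60, adjusted p = 0.787). These 2 comparisons with parental cells share the same parental samples. In the test of any difference among the 3 groups GLRX5 had the lowest adjusted p of the 7 genes, 0.172 (edgeR). On the other strand 12.6% of the exon bases of GLRX5 are shared with SNHG10 (1 to 10 counts) and SCARNA13 (14 to 29 counts), and the strand setting of the counting is not given in the sources used here.

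ISCA1, an A-type carrier of the late steps, had the lowest counts of the 7 tested genes, at 10.2 and 5.25 CPM in parental samples, 6.77, 4.39 and 5.34 in SDHBKO samples and 2.39, 9.61 and 6.60 in SDHBKOSDHAlow samples. These are 2 to 13 counts, and the groups overlapped in each comparison. The log2 fold change of SDHBKO against parental cells was -0.52 (SE 0.70), with a 95% interval from -1.98 to 0.94, and those of the other comparisons were 0.25 and -0.27 (adjusted p = 0.763, 0.905 and 0.904).

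ISCA2, its partner, was measured at 18.2 and 36.7 CPM in parental samples, at 23.0, 15.4 and 26.7 in SDHBKO samples and at 33.4, 37.0 and 34.1 in SDHBKOSDHAlow samples. All SDHBKOSDHAlow samples were above all SDHBKO samples, as for LYRM4 in the other direction, and 17.3% of all genes tested were without overlap in this comparison. The parental samples spanned nearly the whole range. The log2 fold change of SDHBKOSDHAlow against SDHBKO cells was 0.69 (SE 0.35, 95% interval -0.04 to 1.41, adjusted p = 0.435), that of SDHBKO against parental cells -0.33 (SE 0.40, adjusted p = 0.73) and that of SDHBKOSDHAlow against parental cells 0.36 (SE 0.39, adjusted p = 0.757). Without parental replicate 1 the values against parental cells were -0.76 in SDHBKO and -0.07 in SDHBKOSDHAlow cells, and without parental replicate 2 they were 0.24 and 0.93. On the other strand 3.4% of the exon bases of ISCA2 are shared with NPC2 (129 to 247 counts).

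NFU1, which delivers clusters to lipoate synthase and the respiratory chain, was measured at 3.42 and 11.8 CPM in parental samples, at 10.8, 18.6 and 8.54 in SDHBKO samples and at 17.9, 16.3 and 13.2 in SDHBKOSDHAlow samples. The SDHBKOSDHAlow samples lay above both parental samples, which rested on 3 and 9 counts, while SDHBKO samples overlapped with both groups. In SDHBKOSDHAlow against parental cells 30.6% of all genes tested were without overlap. The log2 fold change of SDHBKOSDHAlow against parental cells, 1.07 (SE 0.59, 95% interval -0.16 to 2.30, adjusted p = 0.478), was the largest estimate of the 7 genes. Against SDHBKO cells it was 0.31 (SE 0.48, adjusted p = 0.837), and that of SDHBKO against parental cells was 0.76 (SE 0.61, adjusted p = 0.554). It moved from 0.41 to 2.16 in SDHBKOSDHAlow against parental cells when parental replicate 1 or parental replicate 2 was left out, in that order.

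**Figure D2:**
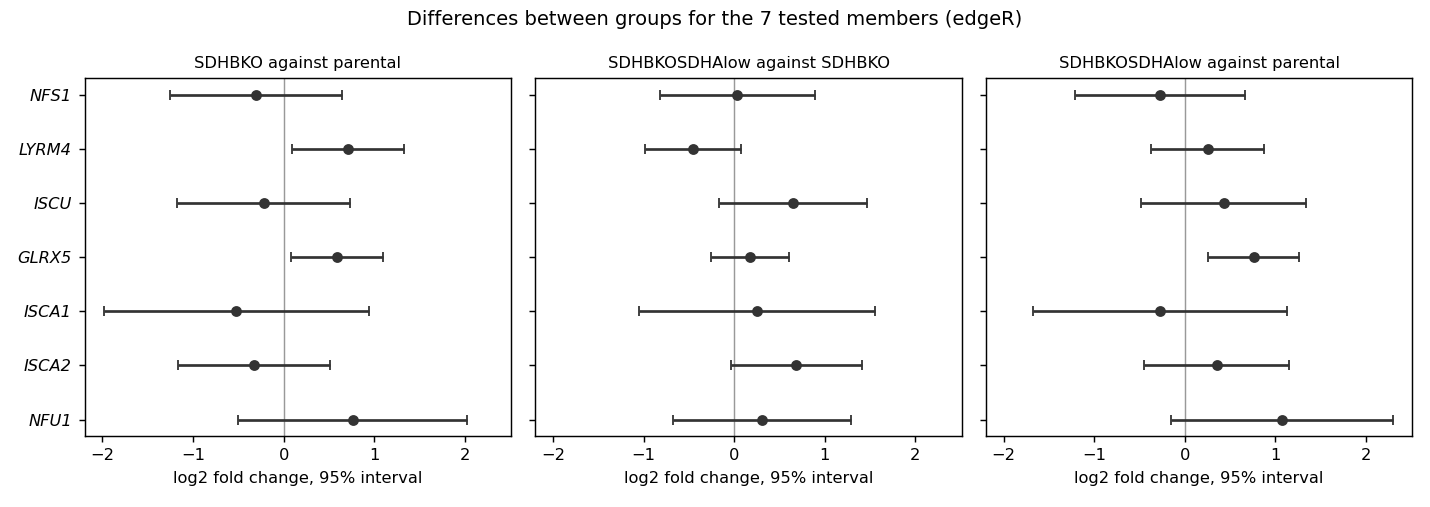
Log2 fold change (dots) with its 95% interval (bars) from edgeR for the 7 tested iron-sulfur cluster assembly genes in the 3 comparisons. Only the intervals of LYRM4 and GLRX5 in SDHBKO against parental cells and of GLRX5 in SDHBKOSDHAlow against parental cells leave out 0, and no adjusted p is below 0.1.

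Seen together, 3 of the 7 genes had a positive and 4 a negative log2 fold change in SDHBKO against parental cells, with a median of -0.22 against -0.001 over all genes tested. In SDHBKOSDHAlow against SDHBKO cells 6 were positive and 1, LYRM4, negative (median 0.25, all genes 0.01). In SDHBKOSDHAlow against parental cells 5 were positive and 2, NFS1 and ISCA1, negative (median 0.36, all genes 0.02). The groups did not overlap for 2 of the 7 genes in SDHBKO against parental cells (LYRM4 and GLRX5, 37.7% of all genes), for 2 in SDHBKOSDHAlow against SDHBKO cells (LYRM4 and ISCA2, 17.3%) and for 3 in SDHBKOSDHAlow against parental cells (NFS1, GLRX5 and NFU1, 30.6%). The median of SDHBKO against parental cells was 0.24 without parental replicate 2, since each median is the value of a single gene.

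The precision differed among the genes with their counts. In parental cells the order of mean levels was GLRX5 at 89.5 CPM, LYRM4 at 39.7, ISCA2 at 27.5, ISCU at 26.2, NFS1 at 19.5, ISCA1 at 7.75 and NFU1 at 7.61, on counts that were not divided by length because each fragment comes from the end of its transcript. The ranges of ISCA2 and its neighbours ISCU and NFS1 overlapped in that order, and so did those of ISCA1 and NFU1. GLRX5 and LYRM4 varied least within groups, with an SD of 0.17 and 0.19 on the log2 CPM scale, and ISCU, NFU1 and ISCA1 most, with 0.56, 0.54 and 0.52. The share of the variance in log2 CPM that lay between the groups was 83.1% for GLRX5, 78.0% for LYRM4, 48.1% for ISCA2, 46.3% for NFU1, 24.3% for ISCU, 22.9% for NFS1 and 10.4% for ISCA1. With 3 groups in 8 samples some of the variance lies between groups without any effect, and the share over all genes was not computed. Among the 5855 tested genes with a mean normalised count in the range of the 7 (5.62 to 116), 226 were called in SDHBKO against parental cells, and the smallest of their log2 fold changes was 0.72 in size. The largest among the iron-sulfur cluster assembly genes was 0.76 in that comparison (NFU1, SE 0.61). The same pair of values was 0.83 and 0.69 in SDHBKOSDHAlow against SDHBKO cells, with 60 genes called in this range, and 0.93 and 1.07 in SDHBKOSDHAlow against parental cells, with 48 called.

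Over the 8 samples 10 of the 21 pairs of the 7 genes had a positive Pearson correlation of log2 CPM, with a median of -0.09 and a range from -0.65 (NFS1 and GLRX5) to 0.44 (GLRX5 and NFU1). The points share the 3 groups and the depth of their libraries. The tested genes with the pattern most like that of GLRX5, by Pearson's r over the 8 samples among 7549 genes, were PPT1 (0.955), ZFAT (0.95), MTMR14 (0.949), TIMM23 (0.945) and PIAS1 (0.943). TIMM23, a channel subunit of the mitochondrial import machinery, had means of 28.1, 44.4 and 53.5 CPM in parental, SDHBKO and SDHBKOSDHAlow cells. None of the 5 was called in any comparison. They were picked as the highest of 7549 values of r, so their high r and their group means follow from that choice. ZFAT and PIAS1 had means of only 1.88 and 3.02 CPM in parental cells. With mean normalised counts of 6.27 and 7.28, they passed the minimum of 5 only through the groups where they are high.

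Other genes of the iron-sulfur pathway were read from the same fits. Of 16 partners of the mitochondrial machinery, such as frataxin, its chaperones and carriers, 14 were tested. In SDHBKO against parental cells 1 of the 14 rose (3.14% of all genes tested were called higher and 2.40% lower) and 0 fell. It was SLC25A28 (mitoferrin-2), an iron importer of the inner membrane, with 10.2 and 17.1 CPM in parental, 63.7, 39.5 and 31.0 in SDHBKO and 44.1, 14.8 and 33.0 in SDHBKOSDHAlow samples, a log2 fold change of 1.70 in SDHBKO against parental cells (SE 0.49, adjusted p = 0.0684, edgeR). Its SDHBKO samples were above both parental samples (37.7% of all genes were without overlap there), while SDHBKOSDHAlow replicate 2 lay among the parental samples. NDUFAB1, the mitochondrial acyl carrier protein that binds LYRM4 and the partner of highest level, had means of 183, 249 and 259 CPM and was called in no comparison (0.44 in SDHBKO against parental cells, SE 0.22, adjusted p = 0.311).

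Of 11 genes of the cytosolic assembly machinery 9 were tested, and 1 was called in SDHBKO against parental cells, where 5.54% of all genes tested were. MMS19, which hands clusters to enzymes of DNA replication and repair, was measured at 609 and 781 CPM in parental, 1350, 983 and 1300 in SDHBKO and 877, 1010 and 658 in SDHBKOSDHAlow samples. It was higher in all SDHBKO samples than in both parental samples, by 0.80 on the log2 scale (SE 0.23, adjusted p = 0.0648), while the SDHBKOSDHAlow samples overlapped with both other groups (-0.51 against SDHBKO cells, SE 0.20, adjusted p = 0.283). In SDHBKO against parental cells 37.7% of all genes tested were without overlap.

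Among the proteins that carry clusters, 10 of 16 mitochondrial clients were tested, and 1 fell in SDHBKOSDHAlow against parental cells (0.689% of all genes called lower, 0.225% higher). This was NDUFV1, a subunit of complex I, with 379 and 412 CPM in parental, 298, 249 and 242 in SDHBKO and 228, 183 and 221 in SDHBKOSDHAlow samples. The 3 groups did not overlap, and the level in SDHBKOSDHAlow cells fell by 0.91 on the log2 scale against parental cells (SE 0.21, adjusted p = 0.0696). NDUFV1 was not called in SDHBKO against parental cells (-0.59, SE 0.21, adjusted p = 0.129, edgeR). Nor was it called in SDHBKOSDHAlow against SDHBKO cells (-0.32, SE 0.19, adjusted p = 0.525, edgeR). Against parental cells, 37.7% of all genes were without overlap in SDHBKO and 30.6% in SDHBKOSDHAlow cells. Between the modified lines the share was 17.3%, and the share with all 3 groups apart was not computed. Of 23 cytosolic and nuclear clients 16 were tested, with 1 called higher and 1 lower in SDHBKO against parental cells (3.14% and 2.40% of all genes tested). ERCC2, a helicase of nucleotide excision repair, was at 331 CPM in both parental samples and at 177 to 231 CPM in SDHBKO samples (-0.70, SE 0.21, adjusted p = 0.0837), and PRIM2, a primase subunit, had 0 and 1 counts in parental and 6, 7 and 6 in SDHBKO samples (adjusted p = 0.0965). PRIM2 had a mean normalised count of 5.09 against the minimum of 5 and passed it only through the groups where it is high, and without a filter its adjusted p was 0.134. ERCC2 was at 188, 172 and 216 CPM in SDHBKOSDHAlow samples (-0.79 against parental cells, SE 0.21, adjusted p = 0.106, edgeR). PRIM2 had 7, 13 and 4 counts there (3.36 against parental cells, SE 1.05, adjusted p = 0.169, edgeR).

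Of 16 iron handling genes 13 were tested, and 3 fell and 0 rose in SDHBKO against parental cells, where 2.40% of all genes tested were called lower and 3.14% higher. TFRC, the transferrin receptor that brings iron into the cell, was measured at 125 and 55.1 CPM in parental samples, at 12.2, 15.4 and 9.61 in SDHBKO samples and at 42.9, 20 and 30.8 in SDHBKOSDHAlow samples. No groups overlapped, and TFRC fell by 2.86 on the log2 scale in SDHBKO against parental cells (SE 0.41, adjusted p = 0.00267) and by 1.57 in SDHBKOSDHAlow against parental cells (SE 0.37, adjusted p = 0.0761), a value of -0.84 without parental replicate 1. Between the modified lines the value was 1.29 (SE 0.41, adjusted p = 0.184). Without overlap against parental cells were 37.7% of all genes in SDHBKO and 30.6% in SDHBKOSDHAlow cells, and 17.3% between the modified lines. SLC39A14, a metal importer, fell by 1.45 in SDHBKO against parental cells (SE 0.38, adjusted p = 0.0468), from 44.4 and 38.1 CPM to 14.9, 16.4 and 13.9. Its SDHBKOSDHAlow samples were at 27.4, 20.7 and 17.6 CPM (-0.92 against parental cells, SE 0.365, adjusted p = 0.288, edgeR). FTH1, the ferritin heavy chain that stores iron, was measured at 1600 and 1800 CPM in parental, 904, 1230 and 957 in SDHBKO and 1770, 1500 and 2080 in SDHBKOSDHAlow samples. It was lower in SDHBKO than in parental cells (-0.73, SE 0.21, adjusted p = 0.0637) and higher in SDHBKOSDHAlow than in SDHBKO cells (0.79, SE 0.19, adjusted p = 0.045), where 0.318% of all genes were called higher and 1.19% lower. FTL, the ferritin light chain, had means of 2580, 2790 and 3340 CPM and was not called. FTH1 has many processed copies in the genome, and reads that map to several places were not counted, so the higher share of such reads in SDHBKO libraries stands beside its values and its part was not tested. On the other strand 63.2% of the exon bases of FTH1 are shared with another gene, and the strand setting of the counting is not given.

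Of these lists, only FTH1 and SDHA were called in SDHBKOSDHAlow against SDHBKO cells, and only NDUFV1, TFRC and SDHA in SDHBKOSDHAlow against parental cells. Of the 8 genes of complex II and its assembly 5 were tested, and SDHA was lower by 3.46 on the log2 scale in SDHBKOSDHAlow than in SDHBKO cells (-3.46, SE 0.28, adjusted p = 1.16e-07). The median log2 fold changes in SDHBKO against parental cells were -0.05 for the partners, 0.003 for the cytosolic machinery, -0.03 for the mitochondrial clients, 0.06 for the cytosolic and nuclear clients, -0.16 for iron handling and -0.02 for complex II, against -0.001 over all genes tested. In SDHBKOSDHAlow against parental cells they were 0.09, 0.12, -0.02, -0.04, 0.08 and 0.52 in the same order, against 0.02. FDX2, FDX1, SDHB and ACO1 stand in more than 1 list.

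Outside the iron-sulfur cluster assembly genes, the calls of SDHA held in each of the 17 alternatives run (highest adjusted p 1.07e-05 against SDHBKO cells and 0.00939 against parental cells), and that of TFRC in SDHBKO against parental cells in 15. The other calls moved with the library left out. Where a parental replicate is left out, 1 parental sample remains, and it is assumed to vary like the samples of the other groups. Without parental replicate 1, 0 genes of the whole table were called by edgeR in SDHBKO against parental cells, with 665 at an unadjusted p below 0.05. TFRC then had a log2 fold change of -2.14 (adjusted p = 0.272), MMS19 of 0.63 (0.58), SLC25A28 of 1.37 (0.543), SLC39A14 of -1.33 (0.468), FTH1 of -0.80 (0.44) and ERCC2 of -0.70 (0.493), so that the directions were kept with the calls lost, and PRIM2 had an adjusted p of 0.601.

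Without parental replicate 2 the calls other than TFRC fell short in that comparison (adjusted p = 0.169 for SLC39A14 to 0.351 for FTH1), with log2 fold changes of 2.09 for SLC25A28, 0.98 for MMS19, -1.56 for SLC39A14, -0.64 for FTH1 and -0.71 for ERCC2. The same calls fell short without SDHBKO replicate 1 (0.131 for SLC39A14 to 0.241 for SLC25A28). Without SDHBKO replicate 3 it was those of MMS19, PRIM2, ERCC2, FTH1 and SLC39A14 (0.142 to 0.196), without SDHBKO replicate 2 those of PRIM2 and ERCC2 (0.125 and 0.119) and without SDHBKOSDHAlow replicate 1 that of PRIM2 (0.108). In SDHBKOSDHAlow against SDHBKO cells, FTH1 had an adjusted p of 0.109 to 0.256 and a log2 fold change of 0.67 to 0.80 without any 1 of 6 libraries, all but SDHBKO replicate 2 and SDHBKOSDHAlow replicate 2. In SDHBKOSDHAlow against parental cells, NDUFV1 fell short without parental replicate 1 (-0.97, 0.799), parental replicate 2 (-0.86, 0.335) or SDHBKOSDHAlow replicate 1 (-0.97, 0.173), and TFRC without parental replicate 1 (-0.84, 0.886), SDHBKO replicate 1 (-1.57, 0.105) or SDHBKOSDHAlow replicate 1 (-1.86, 0.127). Some of these calls also fell short when the processing was changed with all 8 libraries kept.

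**Figure D3:**
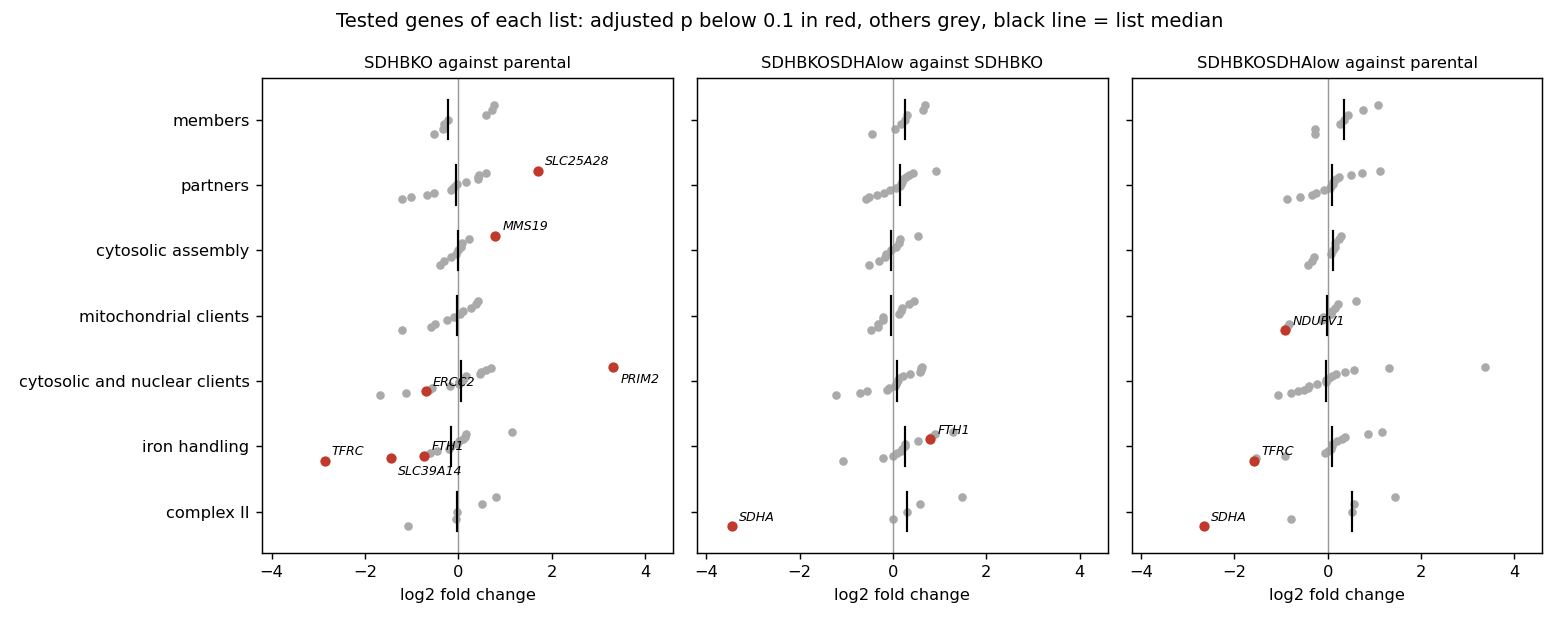
Log2 fold change from edgeR of every tested gene of the iron-sulfur cluster assembly genes (members) and of 6 related lists in the 3 comparisons. Red dots are genes with an adjusted p below 0.1, grey dots the others, and black lines the medians. No dot of the 7 iron-sulfur cluster assembly genes is red, and TFRC lies furthest to the left in SDHBKO against parental cells.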

How the data were processed

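RNA was extracted with RNAzol and libraries of 3' mRNA ends were made with the QuantSeq FWD kit. Per the labels and the study's methods, the authors trimmed reads with Trimmomatic, removed ribosomal and mitochondrial reads, and aligned and counted them per gene with STAR 2.5.2b on GRCh38. The raw counts deposited for each sample entered every test. The deposited normalised values, a signal the authors obtained with DESeq2 size factors, served as a check only, and there the columns of SDHBKO replicates 1 and 3 match each other's raw counts.

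Genes with a mean normalised count above 5 were kept (7550 of 58051). Counts were scaled by TMM and fitted in edgeR 4.0.16 (R 4.3.3) by quasi-likelihood, with all 8 samples in 3 groups and no further covariate. Adjustment over all genes tested followed Benjamini and Hochberg, and genes below 0.1 were called. The SE is the log2 fold change divided by the square root of F, and log2 CPM used a prior count of 2. DESeq2 1.42.0 was run on all genes as an alternative. The other alternatives were DESeq2 size factors within edgeR, library size alone, no filter, filterByExpr, fits of only the groups compared, a replicate block, each sample left out and an adjusted p of 0.05. The test was checked on simulated data. For SDHBKO against parental cells with 7550 genes it recovered 34 of 100 genes changed by a log2 fold of 1 and 95 of 100 changed by 2, and 9.15% of its 142 calls were false. The changed genes were drawn above a higher mean count than the filter, which left out ISCA1. Each simulated gene had the common coefficient of variation, 21.5%, against 17.3% (GLRX5) to 32.8% (ISCA1) in the iron-sulfur cluster assembly genes. The recovered shares therefore do not give the recovery to be had for each of these genes.

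The genes and lists were chosen with earlier results of these data known. Named beside the 8 genes are SDHA, SDHB, each called gene of a related list and the gene of each list with the largest mean or the smallest p. One of the genes this rule names is not reported here. Neighbours and overlaps come from GENCODE release 44, whereas the authors counted on an earlier release.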

Additional observations from a re-analysis of the deposited data

How the results depend on the processing

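No iron-sulfur cluster assembly gene was called under any alternative run, and the log2 fold change of GLRX5 against parental cells kept its sign in all 17, from 0.73 to 0.79 in SDHBKOSDHAlow cells and from 0.51 to 0.73 in SDHBKO cells. The alternative at an adjusted p below 0.05 reads the main fit again, so it could neither add a call nor change a sign. DESeq2 gave no adjusted p for 3 of the 7 genes in SDHBKOSDHAlow against SDHBKO cells and for 5 in each other test, so it could not call those. The median over the genes in SDHBKO against parental cells was -0.22, with 0.18 under filterByExpr, which left out ISCA1 and kept 6 genes, and -0.22 to 0.24 when each library was left out in turn. The 7 same-numbered pairs of samples showed no shared deviation (mean r -0.07, from -0.27 to 0.093, 0 above 0.1). These values cannot decide whether the numbers pair the samples. Within their small group the parental samples mirror each other, with r of -0.068 (parental replicate 1) and 0.068 (parental replicate 2) to SDHBKO replicate 1. The numbering of the SDHBKO samples also differs between the raw and the normalised counts. With the replicate block 0 of the 7 genes were called, the median was 0.02, and GLRX5 had an adjusted p of 0.357 in SDHBKOSDHAlow against parental cells. Over all genes the block gave 199 calls in SDHBKO against parental cells, where the main fit gave 418, and 94 with SDHBKO numbered as in the normalised counts, an alternative chosen after seeing the data. Fits of only the 2 groups gave 773, an adjusted p below 0.05 gave 171, and leaving out each library gave 0 to 833. In SDHBKOSDHAlow against SDHBKO cells 114 calls became 64 with only the 2 groups, 64 at 0.05, 59 with the block, 49 with the other numbering and 39 to 362 with a library left out. In SDHBKOSDHAlow against parental cells 69 became 152 without a filter, 7 with only the 2 groups, 13 at 0.05, 12 with the block, 8 with the other numbering and 4 to 172 with a library left out. For any difference, 330 became 518, 190 at 0.05, 164 with the block, 103 with the other numbering and 43 to 926. Of the calls named in related lists, FTH1 (SDHBKOSDHAlow against SDHBKO), NDUFV1 and TFRC (SDHBKOSDHAlow against parental) fell short with only the 2 groups (adjusted p = 0.108, 0.143 and 0.158), PRIM2 and ERCC2 without a filter (0.134 and 0.14) and PRIM2 with library size alone (0.104). DESeq2 gave no adjusted p for SLC25A28, PRIM2, TFRC and SLC39A14 in SDHBKO against parental cells. With the replicate block, calls other than SDHA and TFRC in SDHBKO against parental cells fell short (0.107 to 0.212). The causes were not tested. Counts of 2 to 22 per library for ISCA1, NFU1 and NFS1 limit what could be seen in them.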
